A study of Oryza sativa with 12 samples.

Results

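Expression of 9 rice genes for ammonium uptake and nitrogen assimilation was followed in leaf blades of Oshmgb1 mutant and wild-type (WT) plants at low and at high phosphate (Pi). The genes were taken by locus identifier from a fixed list and make up 9 of the 32846 genes in the deposited tables. They encode an ammonium transporter (AMT1;1, LOC_Os04g43070), glutamine synthetases (GS2, LOC_Os04g56400; GS1;1, LOC_Os02g50240; GS1;2, LOC_Os03g12290) and glutamate synthases (Fd-GOGAT, LOC_Os07g46460; NADH-GOGAT2, LOC_Os05g48200; NADH-GOGAT1, LOC_Os01g48960). A nitrate reductase (LOC_Os08g36480) and a nitrite reductase (LOC_Os01g25484) complete the list. The files describe each locus by its enzyme or transporter class; the names of single isoforms come from general knowledge of rice and not from the files. By their identifiers the loci lie on chromosomes 1, 2, 3, 4, 5, 7 and 8.

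The 4 groups had 3 libraries each: Oshmgb1 mutant at low Pi, Oshmgb1 mutant at high Pi, WT at low Pi and WT at high Pi. All plants were 21 d old. High-Pi plants had 21 d of high Pi, and low-Pi plants had 14 d of high Pi followed by 7 d of low Pi, so every low-Pi sample had an earlier high-Pi phase. The series concerns OsHMGB1, a chromatin protein, and its part in Pi homeostasis and growth. The design text gives 200 µM as the high Pi supply and repeats that value for low Pi, so the low concentration is not clear. The sources used here do not give the kind of mutant allele, the number of mutant lines, the rice cultivar or the hour of harvest. The labels do not say that libraries of a group came from separate plants, so p-values speak of library-to-library spread only, which may be technical.

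Plants take up inorganic nitrogen as ammonium or as nitrate. Nitrate is reduced to nitrite in the cytosol by nitrate reductase and to ammonium in the plastid by nitrite reductase. Glutamine synthetase attaches ammonium to glutamate, and glutamate synthase (GOGAT) passes the amide group of glutamine to 2-oxoglutarate, which together form the GS/GOGAT cycle. In leaves, the plastid isoforms GS2 and ferredoxin-dependent Fd-GOGAT act in light and also recapture the ammonium released by photorespiration. The cytosolic GS1 isoforms and the NADH-dependent GOGATs are known in rice for work in vascular and non-green tissue and for reuse of nitrogen.

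The unit is FPKM, which corrects fragment numbers for transcript length and for library size, so levels can be compared between genes. FPKM summed to between 549457 and 583292 per library, and between 16093 and 16976 genes per library reached an FPKM of 1. Read depth is unknown, because no read counts were analysed. As a check of the genotype labels, LOC_Os06g51220, taken as OsHMGB1 from general knowledge, stood at 587 to 726 FPKM in mutant libraries at low Pi and 516 to 552 at high Pi, against 1747 to 2147 in WT libraries at low Pi and 1177 to 1308 at high Pi. As a check of the tissue, 21 leaf mesophyll loci (Rubisco small subunits and chlorophyll a/b-binding proteins) summed to between 29888 and 61116 FPKM in every library. Of 3 root loci, the nitrate transporter NRT2.1 was at 0 in all libraries and the silicon exporter LSI2 at 0.29 FPKM or less. The silicon channel LSI1, in the files an aquaporin, stood at 12.8 to 28.4 FPKM. The senescence locus SGR stayed at 0.98 FPKM or less.

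In these leaf blades GS2, Fd-GOGAT and nitrite reductase were the most abundant of the 9 transcripts. Over the 12 libraries GS2 averaged 839.7 FPKM (range 564 to 1042) and had rank 66 among all genes tested. Fd-GOGAT averaged 612 FPKM (485 to 803) and nitrite reductase 188 FPKM (136 to 271). NADH-GOGAT2 followed with a mean of 72.2 FPKM, but its libraries ran from 8.77 to 201 FPKM, a 22.9-fold range. GS1;1 averaged 66.97, AMT1;1 49.95, nitrate reductase 38.7, GS1;2 30.4 and NADH-GOGAT1 11.3 FPKM. In this order only the steps from Fd-GOGAT to nitrite reductase and from GS1;2 to NADH-GOGAT1 separated neighbours whose ranges did not overlap. All 9 genes passed the filter on low values (3 or more libraries with an FPKM of 1 or more).

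**Figure D1:**
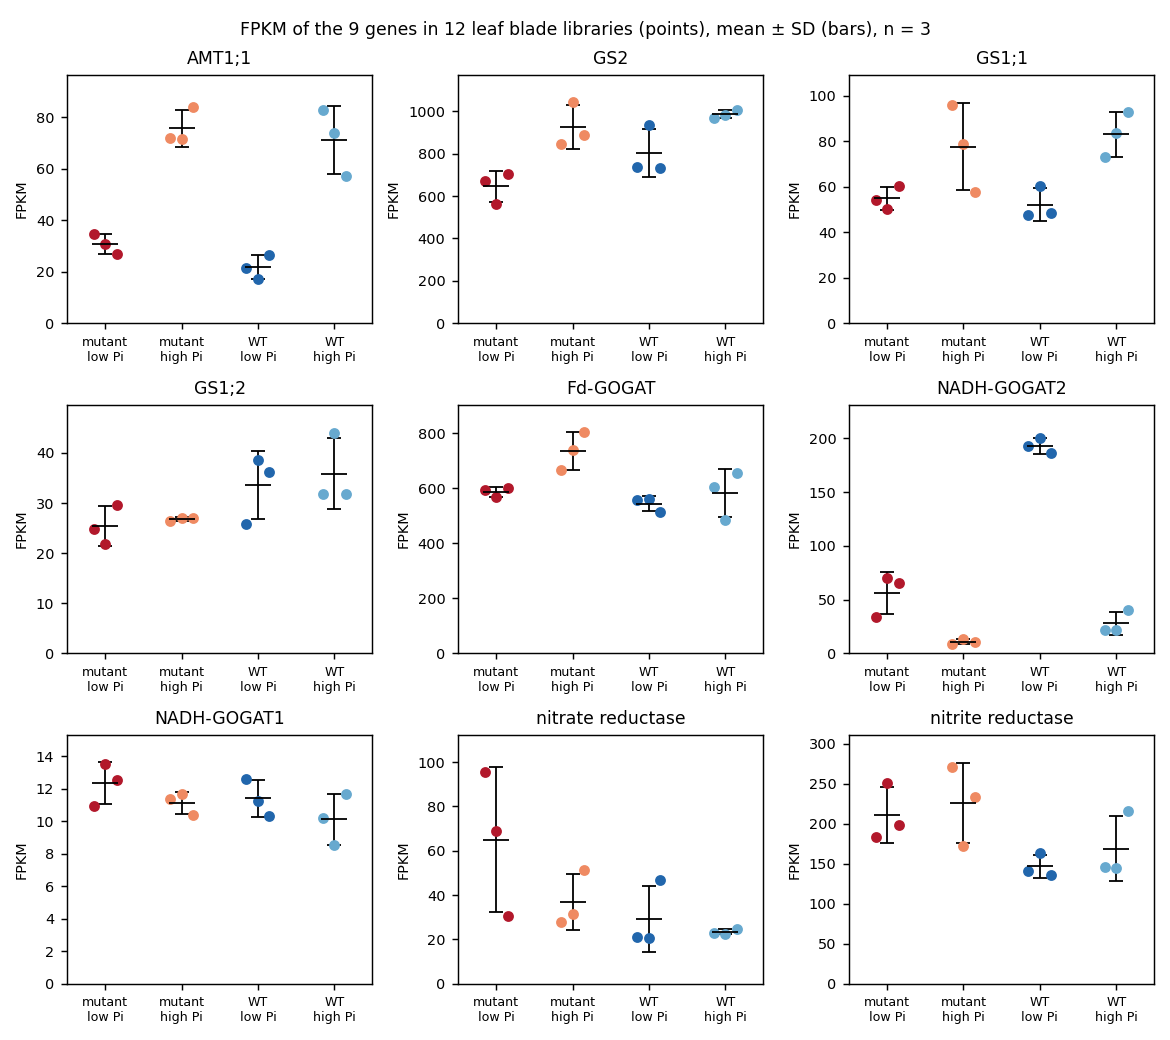
FPKM of each of the 9 genes (vertical axes, from 0, own scale for each gene) in the 4 groups, mutant left of WT and low Pi left of high Pi within a genotype. Points are single libraries and bars the mean ± SD of n = 3; NADH-GOGAT2 reaches 186 to 201 FPKM in low-Pi WT and only 8.77 to 13.5 FPKM in the high-Pi mutant, and AMT1;1 is lower at low Pi in both genotypes.

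The design asks how leaf blades of each genotype responded to low Pi and how the mutant differed from WT at each Pi level. At low Pi, AMT1;1 fell and NADH-GOGAT2 rose in both genotypes, while GS2 fell in the mutant and GS1;1 fell in WT. In the mutant, NADH-GOGAT2 was lower than in WT at both Pi levels. Folds were tested on log2(FPKM + 1) with limma, a linear model that shares information on the spread across genes, and called genes are those with a p below 0.05 after Benjamini-Hochberg adjustment over all genes tested. For low against high Pi, 3 of the 9 genes were called in the mutant (18.8% of all genes), of which 1 rose (10.5% of all genes) and 2 fell (8.28%). In WT 3 of 9 were called (13.3% of all genes), of which 1 rose (8.43%) and 2 fell (4.87%). For mutant against WT, 1 of 9 was called at low Pi, a share near the background (15.9% of all genes, 4.72% up and 11.1% down), and 1 of 9 at high Pi (3.58% of all genes, 1.3% up and 2.27% down). Both were falls. Groups without overlap between their libraries were seen for 4 of 9 genes at low against high Pi in the mutant (37.5% of all genes) and 4 of 9 in WT (32.6%), and for 5 of 9 between mutant and WT at low Pi (37.7%) and 4 of 9 at high Pi (24.2%), shares near or moderately above the background. The interaction subtracts the WT response to low Pi from the mutant one. limma called it for 0 of 9 genes (3.64% of all genes, 1.49% up and 2.14% down), and 0 of 9 had an unadjusted p below 0.05. The median log2 fold of the 9 genes was −0.08 in the mutant and −0.10 in WT for low against high Pi, against 0.00 and 0.07 over all genes tested. For mutant against WT it was 0.11 at low Pi and 0.10 at high Pi, against −0.07 and −0.02 over all genes.

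**Figure D2:**
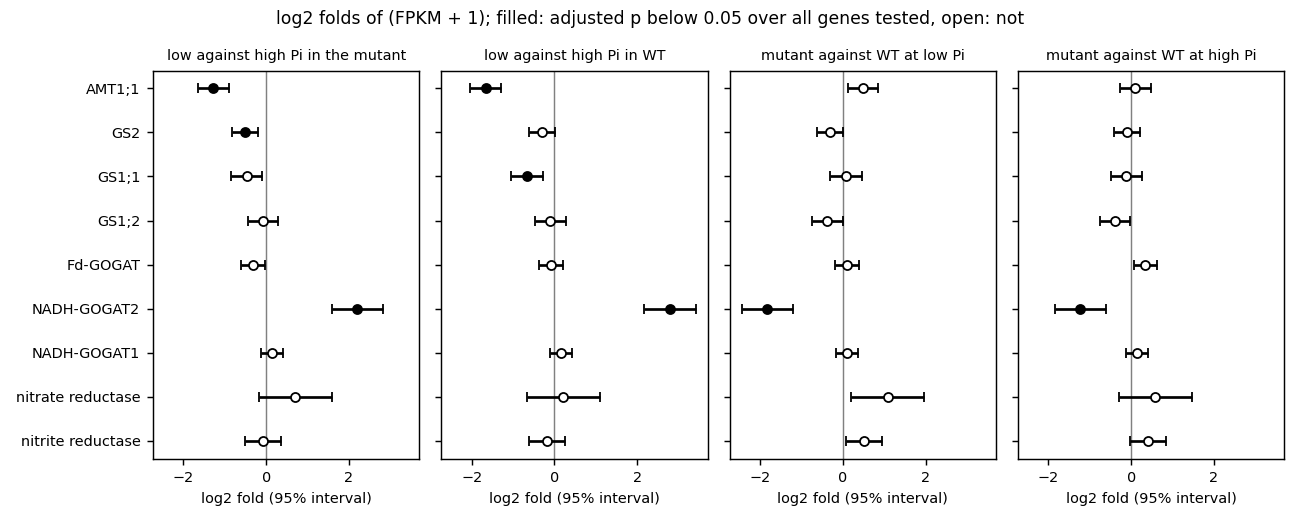
log2 folds of FPKM + 1 (horizontal axes) of the 9 genes in 4 comparisons, with bars for the 95% interval from limma; filled points have an adjusted p below 0.05 over all genes. AMT1;1 (−1.28 in the mutant, −1.67 in WT) and NADH-GOGAT2 (2.20 and 2.79) have filled points in both low-Pi comparisons, and NADH-GOGAT2 alone has them in the genotype comparisons.

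AMT1;1 is a plasma membrane ammonium transporter, known in rice from both roots and shoots. In the mutant it had 34.7, 30.7 and 26.8 FPKM at low Pi, against 72.0, 71.5 and 84.2 FPKM at high Pi. In WT it had 21.6, 17.4 and 26.5 FPKM at low Pi, against 83.1, 73.9 and 57.1 FPKM at high Pi. Every low-Pi library thus lay below every high-Pi library of either genotype. The gene fell at low Pi by a log2 fold of −1.28 (SE 0.17, adjusted p = 0.000633) in the mutant and −1.67 (SE 0.17, adjusted p = 0.00014) in WT. Both calls held under all 19 alternatives tried. Because these are whole leaf blades, fewer cells that express a gene and less RNA per cell cannot be told apart.

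Between genotypes, AMT1;1 libraries did not overlap at low Pi, with all 3 mutant values (26.8 to 34.7 FPKM) above all 3 WT values (17.4 to 26.5 FPKM). The log2 fold of 0.49 (95% interval 0.11 to 0.86, adjusted p = 0.0736) did not pass; it passed after median-of-ratios scaling (0.58, adjusted p = 0.0421) and upper-quartile scaling (0.55, adjusted p = 0.0488). At high Pi the mutant averaged 75.9 ± 7.18 FPKM and WT 71.3 ± 13.2 FPKM (SD, n = 3 each), and their libraries overlapped. The interaction was 0.39 (SE 0.24, adjusted p = 0.432). AMT1;1 made up 50.3 ± 7.44% (SD) of the summed FPKM of the 12 loci described as ammonium transporters in the mutant at low Pi and 70.2 ± 5.92% at high Pi. In WT its share was 35.3 ± 4.09% at low Pi and 67.6 ± 5.75% at high Pi.

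GS2, the plastid glutamine synthetase, had 672, 564 and 703 FPKM in the mutant at low Pi, against 844, 1042 and 889 FPKM at high Pi. The WT libraries had 737, 933 and 734 FPKM at low Pi, against 969, 981 and 1007 FPKM at high Pi. The low-Pi libraries lay below the high-Pi libraries in each genotype. In the mutant GS2 fell at low Pi (log2 fold −0.52, SE 0.14, adjusted p = 0.0278), but leaving out mutant low-Pi library 1 (0.0573) or 2 (0.108), or mutant high-Pi library 2 (0.1), ended the call. So did a fit with no filter (0.0801) or to the 6 mutant libraries alone (0.0778). In WT the log2 fold was −0.31 (95% interval −0.62 to 0.01, adjusted p = 0.186), and the interaction was −0.21 (adjusted p = 0.646), so a difference between the genotypes in this response was not shown.

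Rubisco small subunit transcripts, which mark leaf mesophyll, were lowest in the mutant low-Pi library with the least GS2 and highest in the mutant high-Pi library with the most. The 4 loci summed to 10511, 6454 and 8624 FPKM in the mutant at low Pi, against 11581, 16950 and 11859 at high Pi, and to 8368, 16078 and 10715 FPKM in WT at low Pi, against 13085, 11759 and 12249 at high Pi. The other 17 loci of the list, chlorophyll a/b-binding proteins, summed to a mean of 27930.5 FPKM in the mutant at low Pi and 27622.8 at high Pi. In WT the means were 35155.4 at low Pi and 32896.6 at high Pi. These means were not lower at low Pi. Over the whole list of 21 mesophyll loci, 20 were tested, of which 1 rose and 2 fell at low Pi in the mutant and likewise in WT. Among all genes tested, 10.5% rose and 8.28% fell in the mutant, and 8.43% rose and 4.87% fell in WT. The summed level of the list was 29888 to 40481 FPKM in the mutant at low Pi, 35293 to 49408 in the mutant at high Pi, 36988 to 61116 in WT at low Pi and 44926 to 45768 in WT at high Pi. The part of mesophyll content in the GS2 result was not tested.

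GS1;1, a cytosolic glutamine synthetase that in rice serves growth and grain filling, had 54.2, 50.1 and 60.4 FPKM in the mutant at low Pi, against 96.2, 79.0 and 57.9 FPKM at high Pi. In WT it had 47.6, 60.6 and 48.4 FPKM at low Pi, against 73.0, 83.5 and 92.9 FPKM at high Pi. The WT groups did not overlap, whereas mutant high-Pi library 3 lay among the low-Pi libraries. In WT the gene fell at low Pi (log2 fold −0.66, SE 0.17, adjusted p = 0.0276). Leaving out WT low-Pi library 1 (0.0819) or 3 (0.101), or WT high-Pi library 2 (0.0747) or 3 (0.0914), ended that call. In the mutant the log2 fold was −0.47 (95% interval −0.85 to −0.09, adjusted p = 0.0806), and it passed without mutant high-Pi library 3 (−0.66, adjusted p = 0.013). The interaction was 0.20 (adjusted p = 0.743).

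GS1;2, the cytosolic isoform that in rice roots assimilates ammonium, ran from 21.9 to 44.0 FPKM over all libraries. Its mutant means were 25.5 ± 3.95 FPKM at low Pi and 26.8 ± 0.32 at high Pi, and its WT means 33.5 ± 6.78 at low Pi and 35.9 ± 7.01 at high Pi (SD, n = 3). For mutant against WT the log2 fold was −0.37 (95% interval −0.74 to −0.0048, adjusted p = 0.155) at low Pi and −0.39 (−0.76 to −0.02, adjusted p = 0.206) at high Pi, and neither was called; at low Pi it passed without WT low-Pi library 1 (−0.55, adjusted p = 0.0436). GS2 accounted for 87.3 to 91.3% of the summed FPKM of the 3 glutamine synthetases in every library. The third cytosolic locus, LOC_Os03g50490, was listed at 0 in all 12.

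Fd-GOGAT, the ferredoxin-dependent plastid enzyme, had 593, 567 and 599 FPKM in the mutant at low Pi, against 665, 739 and 803 FPKM at high Pi. WT had 556, 562 and 514 FPKM at low Pi, against 606, 485 and 656 FPKM at high Pi. No comparison was called. The mutant low-Pi libraries lay below the mutant high-Pi libraries (log2 fold −0.32, 95% interval −0.61 to −0.04, adjusted p = 0.108). The mutant libraries at high Pi lay above those of WT (0.35, 95% interval 0.06 to 0.63, adjusted p = 0.159).

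NADH-GOGAT2, known in rice from mature leaves and their vascular tissue, had the largest low-Pi folds of the 9 genes. In the mutant it had 34.0, 70.2 and 65.3 FPKM at low Pi, against 8.77, 13.5 and 11.0 FPKM at high Pi. In WT it had 193, 201 and 186 FPKM at low Pi, against 22.2, 21.8 and 40.5 FPKM at high Pi. No 2 of the 4 groups overlapped, except that mutant low-Pi library 1 (34.0 FPKM) fell below WT high-Pi library 3 (40.5 FPKM). The gene rose at low Pi by a log2 fold of 2.20 (SE 0.28, adjusted p = 0.000534) in the mutant and 2.79 (SE 0.28, adjusted p = 0.00014) in WT, and both calls held under all 19 alternatives. The interaction was −0.59 (95% interval −1.47 to 0.29, adjusted p = 0.479), so the difference in response on the log2 scale was not resolved with 3 libraries per group.

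At low Pi, NADH-GOGAT2 averaged 56.5 ± 19.6 FPKM in the mutant and 193 ± 7.35 FPKM in WT (log2 fold −1.82, SE 0.28, adjusted p = 0.00323), a call kept under all 19 alternatives. At high Pi it averaged 11.1 ± 2.36 FPKM in the mutant and 28.2 ± 10.7 FPKM in WT (log2 fold −1.23, SE 0.28, adjusted p = 0.0407). The high-Pi call held under 8 of 19 alternatives. It ended when any of the mutant high-Pi libraries 1 (0.0731), 2 (0.0695) and 3 (0.0975) was left out, and likewise for WT high-Pi libraries 1 (0.0649), 2 (0.0606) and 3 (0.109) and WT low-Pi libraries 1 (0.0534), 2 (0.0557) and 3 (0.0514). Testing without a filter (0.071) or on the 6 high-Pi libraries alone (0.0929) ended it too. NADH-GOGAT1, the isoform that in rice roots acts in the assimilation of ammonium, stayed between 8.52 and 13.6 FPKM in all 12 libraries. Its log2 folds were between 0.11 and 0.16 in the 4 comparisons, with every 95% interval between −0.16 and 0.43.

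Ratios within a library do not depend on how that library was scaled, apart from the added 1, so isoforms were also compared this way. NADH-GOGAT2 stood on average at 4.49 times NADH-GOGAT1 in the mutant at low Pi and at 0.99 times at high Pi, against 17.0 times in WT at low Pi and 2.74 times at high Pi. Averaged over the genotypes, the log2 ratio of FPKM + 1 was higher by 2.35 at low Pi than at high Pi, with 2.07 in the mutant and 2.63 in WT (exact permutation test within genotypes, two-sided, p = 0.005, adjusted p = 0.01 over 8 ratio tests). In the mutant it was lower than in WT (difference −1.65, with −1.93 at low Pi and −1.37 at high Pi; exact permutation test within Pi levels, p = 0.005, adjusted p = 0.01). A p of 0.005 is the smallest that the 400 arrangements can give.

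The ferredoxin-dependent and NADH-dependent glutamate synthases were compared in the same way. Fd-GOGAT stood at 8.07 to 17.5 times NADH-GOGAT2 in the mutant at low Pi and 54.8 to 75.8 times at high Pi, against 2.76 to 2.89 times in WT at low Pi and 16.2 to 27.3 times at high Pi. The log2 ratio differed by −2.70 between low and high Pi and by 1.75 between mutant and WT (exact permutation tests, p = 0.005 and adjusted p = 0.01 for each). Both ratios share NADH-GOGAT2, so they are not independent. NADH-GOGAT2 made up 8.59 ± 2.88% of the summed FPKM of the 3 GOGAT genes in the mutant at low Pi and 1.46 ± 0.27% at high Pi, against 25.8 ± 0.47% in WT at low Pi and 4.48 ± 1.14% at high Pi (SD, n = 3). The log2 ratio of GS2 to GS1;1 differed by 0.15 between low and high Pi (exact permutation p = 0.295, adjusted p = 0.325) and by −0.18 between mutant and WT (exact permutation p = 0.225, adjusted p = 0.3).

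**Figure D3:**
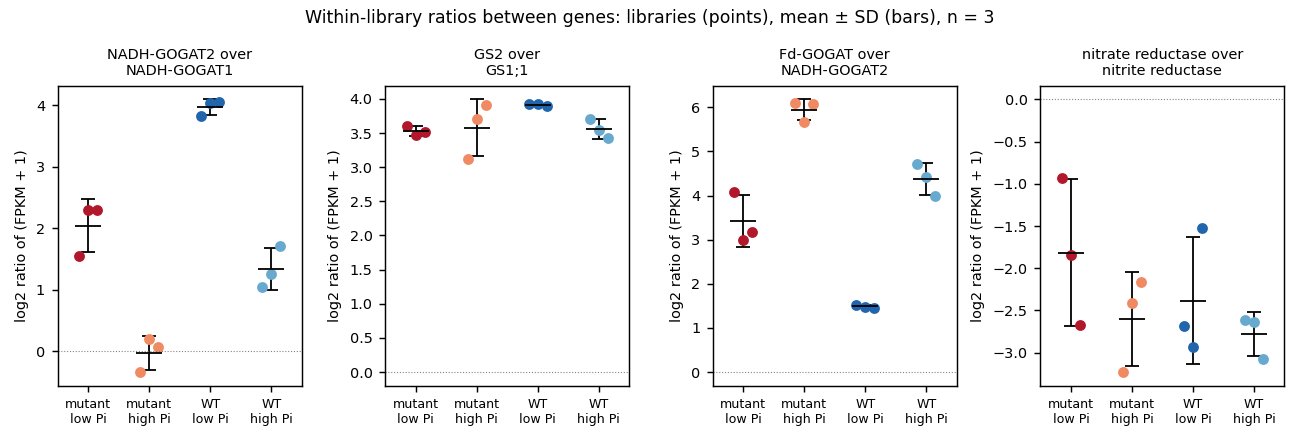
Within-library log2 ratios of FPKM + 1 (vertical axes) for 4 pairs of genes in the 4 groups, with single libraries as points and the mean ± SD of n = 3 as bars; the dotted line marks equal levels. NADH-GOGAT2 over NADH-GOGAT1 has means of 2.04 and −0.03 in the mutant at low and high Pi and of 3.97 and 1.34 in WT, and the other isoform ratio, GS2 over GS1;1, stays between 3.12 and 3.93 in all libraries.

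Clock transcripts also moved with Pi level, and the hour of harvest is not known. Of 9 clock loci, 8 were tested, of which 5 rose and 1 fell at low Pi in the mutant and likewise in WT (LUX, at 1.41 FPKM or less, was not tested). Among all genes tested, 10.5% rose and 8.28% fell in the mutant, and 8.43% rose and 4.87% fell in WT. LHY, a morning gene, had 68.6 ± 6.90 FPKM in the mutant at low Pi and 476 ± 24.7 at high Pi, against 37.7 ± 8.90 in WT at low Pi and 275 ± 20.8 at high Pi. PRR1, an evening gene, had 18.6 ± 2.24 FPKM in the mutant at low Pi and 6.18 ± 3.46 at high Pi, against 33.4 ± 11.3 in WT at low Pi and 5.24 ± 1.27 at high Pi. The summed level of the 9 loci was 867 to 1061 FPKM in the mutant at low Pi, 968 to 1149 in the mutant at high Pi, 858 to 1057 in WT at low Pi and 837 to 880 in WT at high Pi. LHY was also higher in the mutant than in WT at low Pi (log2 fold 0.87, adjusted p = 0.00424) and at high Pi (0.79, adjusted p = 0.0189). Leaving out mutant high-Pi library 2 (0.0628) or 3 (0.0534), or WT high-Pi library 2 (0.0519) or 3 (0.0658), ended the high-Pi call. The WT rises of PRR37 and GI, 2 of the 5, both lost their calls when WT low-Pi library 1 (0.0519 and 0.0535) or WT high-Pi library 3 (0.0529 and 0.0513) was left out. The part of the hour of harvest in the changes of AMT1;1 and NADH-GOGAT2 was not tested.

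Loci listed for dividing cells, nearly all of them core histones, differed in summed level between the groups as well. The 44 loci of that list, 43 core histones and 1 cyclin-B (PCNA had no match), summed to 1368 to 1648 FPKM in the mutant at low Pi and 1941 to 2320 at high Pi, against 1750 to 3722 in WT at low Pi and 1223 to 1451 at high Pi. The core histones were uneven in WT at low Pi, with 1746, 2233 and 3717 FPKM. Cyclin-B by itself was higher on average at low Pi in both genotypes. It averaged 4.42 FPKM in the mutant at low Pi and 2.31 at high Pi, against 3.99 and 2.89 in WT. Of the 44 loci, 34 were tested. In the mutant relative to WT, 0 rose and 10 fell at low Pi (4.72% and 11.1% of all genes), with a median log2 fold of −0.69. At high Pi 2 rose and 0 fell (1.3% and 2.27% of all genes), with a median of 0.34. For low against high Pi, 2 of the 34 rose and 6 fell in the mutant (10.5% and 8.28% of all genes). In WT 10 rose and 0 fell (8.43% and 4.87% of all genes). For the interaction 0 of the 34 rose and 7 fell (1.49% and 2.14% of all genes), with a median log2 fold of −1.07. The part of dividing cells in the NADH-GOGAT2 results, including its lower level in the mutant, was not tested.

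Nitrate reductase, the first enzyme of nitrate assimilation, had 95.7, 69.1 and 30.4 FPKM in the mutant at low Pi, against 28.0, 31.5 and 51.1 FPKM at high Pi. WT libraries had 21.0, 20.4 and 46.6 FPKM at low Pi, against 23.0, 22.5 and 24.7 FPKM at high Pi. Libraries within 3 of the 4 groups were unequal, and only WT at high Pi had values close together. For mutant against WT at low Pi the log2 fold was 1.08 (95% interval 0.20 to 1.96, adjusted p = 0.0896), which passed when mutant low-Pi library 3 (1.55, adjusted p = 0.0189) or the WT one of that number (1.46, adjusted p = 0.0492) was left out. For low against high Pi it was 0.70 in the mutant (adjusted p = 0.249) and 0.21 in WT (adjusted p = 0.782); the mutant value passed without mutant low-Pi library 3 (1.17, adjusted p = 0.0489). At high Pi the mutant libraries lay above those of WT (0.59, 95% interval −0.29 to 1.47, adjusted p = 0.417).

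The spread between libraries was shared by the other nitrate reductase loci. LOC_Os08g36500 had 59.7, 44.1 and 23.1 FPKM in the mutant at low Pi and 22.9, 22.7 and 33.0 at high Pi, against 19.5, 17.1 and 36.0 in WT at low Pi and 17.7, 21.8 and 21.1 at high Pi. LOC_Os02g53130 had 3, 1 and 0.08 FPKM in the mutant at low Pi and 0.04, 0.17 and 1.07 at high Pi, against 0, 0 and 0.31 in WT at low Pi and 0.02, 0 and 0 at high Pi. The same library was highest for all 3 loci in the mutant at low Pi, in the mutant at high Pi and in WT at low Pi. Both chromosome 8 loci are close paralogs, and the sources used here do not tell how reads mapping to both were counted, so their separate levels are uncertain. LOC_Os08g36480 was not called in any comparison, nor were the other 2 loci.

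**Figure D4:**
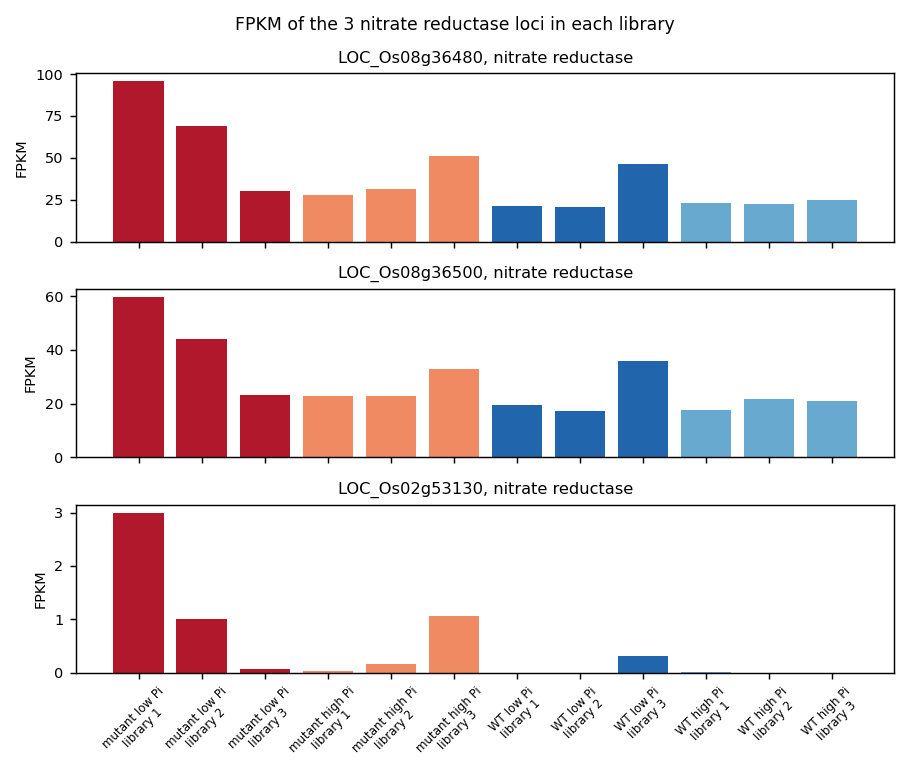
FPKM (vertical axes, from 0, own scale for each locus) of the 3 nitrate reductase loci in each of the 12 libraries, coloured by group. Mutant low-Pi library 1 is highest for all 3 loci (95.7, 59.7 and 3 FPKM from top to bottom), and the third libraries of the mutant at high Pi and of WT at low Pi stand above the other libraries of their groups.

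Nitrite reductase, which reduces nitrite to ammonium in the plastid, had 184, 250 and 199 FPKM in the mutant at low Pi, against 271, 172 and 233 FPKM at high Pi. WT had 141, 163 and 136 FPKM at low Pi, against 146, 145 and 216 FPKM at high Pi. At low Pi the mutant libraries lay above those of WT, with a log2 fold of 0.51 (95% interval 0.08 to 0.95, adjusted p = 0.104) that was not called and passed in a fit to the 6 low-Pi libraries (adjusted p = 0.0468). At high Pi the log2 fold was 0.42 (95% interval −0.02 to 0.85, adjusted p = 0.25). The log2 ratio of nitrate reductase to nitrite reductase differed by 0.59 between low and high Pi (exact permutation p = 0.15, adjusted p = 0.24) and by 0.37 between mutant and WT (exact permutation p = 0.325, adjusted p = 0.325).

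Other genes matched to nitrogen metabolism by their descriptions numbered 38, of which 20 passed the filter. Among them, LOC_Os05g42350 is described as a nitrite reductase but carries EC 1.8.7.1, the number of ferredoxin-sulfite reductase. It was not called in any comparison. At low Pi, 0 of the 20 rose (10.5% of all genes) and 3 fell (8.28%) in the mutant. In WT 1 rose (8.43% of all genes) and 2 fell (4.87%). For mutant against WT, 0 were called at low Pi (15.9% of all genes). At high Pi 2 rose (1.3% of all genes) and 0 fell (2.27%). The interaction was called for 0 of them (3.64% of all genes). Their median log2 fold was −0.02 in the mutant and 0.00 in WT for low against high Pi, and −0.05 at low Pi and 0.04 at high Pi for mutant against WT. No locus was matched for aspartate aminotransferase, alanine aminotransferase or isocitrate dehydrogenase.

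Among the other ammonium transporters, LOC_Os05g39240 was the most abundant, at 18.8 to 35.5 FPKM, and was not called. LOC_Os02g34580 was lower at low Pi in the mutant (1.02 to 1.74 FPKM at low Pi and 2.21 to 2.92 at high Pi, log2 fold −0.59, adjusted p = 0.0183). That call was lost without mutant low-Pi library 1 (0.0682) or mutant high-Pi library 1 (0.0551). At high Pi the same gene was higher in the mutant than in WT (0.65, adjusted p = 0.04), a call kept under 7 of 18 alternatives. It was lost without any 1 of the 6 high-Pi libraries (0.0663 to 0.106), or of the low-Pi libraries numbered 3 in the mutant (0.0539) and WT (0.0507). It was also lost with no filter (0.0639), with replicate number as a block (0.0788) and in the fit to the 6 libraries (0.0856). LOC_Os01g65000, at 1.66 to 3.58 FPKM, was tested and not called, and the other 8 ammonium transporter loci did not pass the filter.

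Glutamate dehydrogenase LOC_Os03g58040, which can release or bind ammonium, fell in WT at low Pi (6.44 ± 1.00 FPKM at low Pi and 9.28 ± 1.49 at high Pi, log2 fold −0.46, adjusted p = 0.0476). The call held under 7 of 19 alternatives, with an adjusted p as high as 0.151 (WT high-Pi library 3 left out). The more abundant glutamate dehydrogenase LOC_Os01g37760 (14.3 to 17.5 FPKM) was not called in any comparison, nor was LOC_Os04g45970 (2.27 to 4.6 FPKM). Phosphoenolpyruvate carboxylase makes oxaloacetate, which feeds carbon into amino acid synthesis. Of its loci, LOC_Os09g14670 rose in WT at low Pi (8.66 ± 0.38 FPKM at low Pi and 4.92 ± 0.87 at high Pi, log2 fold 0.72, adjusted p = 0.0391), a call kept under 10 of 19 alternatives (adjusted p up to 0.126, without WT high-Pi library 2). LOC_Os01g11054 fell in the mutant at low Pi (log2 fold −0.38, adjusted p = 0.0376, kept under 12 of 19) and was higher in the mutant than in WT at high Pi (0.46, adjusted p = 0.0488, kept under 5 of 19). For the mutant response its adjusted p was as high as 0.117 (mutant low-Pi library 3 left out), and for the genotype difference 0.129 (WT high-Pi library 2 left out) and 0.167 in a fit to the 6 libraries. The most abundant phosphoenolpyruvate carboxylase loci, LOC_Os08g27840 (60.2 to 108.6 FPKM) and LOC_Os02g14770 (31.9 to 50.6 FPKM), were not called in any comparison.

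The description search for glutamate synthase also matched LOC_Os03g02030, a folylpolyglutamate synthase of folate metabolism and no part of the cycle. It fell at low Pi in the mutant (−0.52, adjusted p = 0.0108) and in WT (−0.45, adjusted p = 0.0269), the WT call being lost when WT low-Pi library 1 (0.0867) or 2 (0.0654) was left out, or WT high-Pi library 1 (0.0852), 2 (0.0627) or 3 (0.0514). Without it, 2 genes fell in the mutant and 1 in WT. Asparagine synthetase moves the amide group of glutamine to aspartate. Its locus LOC_Os03g18130 had 45.9, 82.2 and 73.3 FPKM in the mutant at low Pi and 116, 49.7 and 49.4 at high Pi, against 64.1, 34.7 and 104 in WT at low Pi and 132, 144 and 130 at high Pi. WT at high Pi stood above every other library, but neither low against high Pi in WT (−1.13, adjusted p = 0.0859) nor mutant against WT at high Pi (−1.02, adjusted p = 0.165) was called. The other locus, LOC_Os06g15420, stayed at 35.7 to 46.4 FPKM.

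For each of the 9 genes, the genes with the most similar log2(FPKM + 1) over the 12 libraries were listed by Pearson r, as a description only. The 12 libraries fall into 4 groups and share their FPKM scaling. The 3 nearest to NADH-GOGAT2 were a rhomboid homologue (LOC_Os08g43320), a chromo domain gene (LOC_Os06g01320) and a DnaJ gene (LOC_Os01g42190), each with r of 0.97. On deviations from the group means, r was 0.44, 0.86 and 0.59 in that order. The chromo domain gene ran only from 4.49 to 6.64 FPKM. The rhomboid homologue averaged 5.62 FPKM in the mutant at low Pi and 1.82 at high Pi, against 13.7 in WT at low Pi and 2.96 at high Pi. Nearest to AMT1;1 was LOC_Os03g32490, which the files describe by a DUF1230 domain (r of 0.98), with 127 ± 15.6 FPKM in the mutant at low Pi and 377 ± 68.7 at high Pi, against 101 ± 12.8 in WT at low Pi and 319 ± 39.8 at high Pi. Nearest to GS2 were a photosystem I subunit gene (LOC_Os07g05480) and a Rubisco small subunit gene (LOC_Os12g19381), each with r of 0.95. Nearest to nitrate reductase were its paralogs LOC_Os08g36500 (r of 0.98) and LOC_Os02g53130 (0.94). For NADH-GOGAT1 the highest r was 0.87.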

How the data were processed

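Total RNA of leaf blades was made into libraries from 1 µg with a NEBNext Ultra kit, per the labels' protocols. Tools listed in the submitters' processing notes are HISAT2 2.0.5, StringTie 1.3.6 and CASAVA 2.17; the sources used here give no build, annotation or multi-mapping rule. The authors deposited FPKM per library in 4 tables, per the file headers; 12 of 12 libraries were identical in both tables that held them. Ratios of low FPKM (66 library pairs) showed no steps of single reads (at most 8.55% in a window of ± 0.05 log2), so read depth could not be recovered and intervals come from the library spread. A further 2 columns without a label were not used. limma 3.58.1 (R 4.3.3, trend, no block, two-sided) was fitted to log2(FPKM + 1) over 12 libraries, keeping genes that reached an FPKM of 1 in 3 or more; such folds understate changes of weakly expressed genes. The fit was tested on simulated data. Python 3.11.15, pandas 2.3.3, numpy 2.4.6 and matplotlib 3.10.9 were used. The 9 genes, the lists and the tests were chosen with earlier results of these data known. Named genes were the 9, up to 4 per pathway class by smallest p, the 3 most similar genes for each, and OsHMGB1; the clock genes given as examples were chosen after their values were seen. The supplied gene table matched 0 locus identifiers, so no sequences or coordinates are given.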

Additional observations from a re-analysis of the deposited data

How the results depend on the processing

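The 9 genes were tested again under 19 alternatives per comparison (18 for the interaction), and the ratios under 13. Of 846 refitted folds of the 9 genes, 816 kept their side of the threshold, 22 lost a call and 8 gained one. Most of the folds were not called in the main fit and had no call to lose. Leaving out a library outside a comparison also left its fold unchanged. The 816 therefore say little about how firm the calls were. The sign changed in 22 folds that were called neither before nor after, and in 0 folds called in either fit. For mutant against WT at high Pi, the number of called genes (1) was 0 with no filter and in the fit to the 6 libraries, and 0 to 1 when a library was left out. At low Pi it (1) was 2 under median-of-ratios scaling, upper-quartile scaling and the fit to the 6 libraries, and 1 to 2 when a library was left out. The count for low against high Pi ran from 2 to 4 in the mutant and from 2 to 3 in WT, and the interaction stayed at 0. The cause of these shifts was not tested. The 8 ratio tests kept their sides in all 13 alternatives. The called ratios were at the smallest p possible, with groups fully separated, and leaving out a library keeps that separation. Leaving out libraries could therefore not end these calls and says little about how firm they were. Over all genes, mutant against WT at low Pi gave 833 rises and 1963 falls, and 1340 and 1404 after median-of-ratios scaling; at high Pi 230 and 401, and 40 and 63 in the fit to the 6 libraries. Low against high Pi in WT gave 1487 and 858, and 1068 and 1180 after median-of-ratios scaling. Deviations from the group mean correlated by −0.38 to 0.34 for same-numbered libraries and by −0.36 to 0.31 for differently numbered ones. Pairing of libraries by replicate number was therefore not shown. With the replicate block, calls of GS2 in the mutant (adjusted p = 0.0571) and GS1;1 in WT (0.0568) at low Pi were lost, so that 2 genes were called in each. Over all genes the block called 104 rises and 208 falls for mutant against WT at high Pi. Read depth is unknown. With 3 libraries per group and the spread between them, the differences seen for GS1;2 and Fd-GOGAT were not resolved in the main fit.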
